A study of Mus musculus with 10 samples.

Results

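The cardiac myosin heavy chain genes Myh6, Myh7 and Myh7b and the antisense transcript Mhrt are described here, 4 of the 56748 genes in the deposited tables. They were chosen by name with the difference between training and sedentary hearts already known, so that their own differences between the groups are given as a description with no test. RNA came from whole hearts, ventricles with the right and left atrium, of 10 wild-type (WT in the labels) male C57BL/6 mice bought at 8 weeks of age, each heart a separate library. The training group of 5 mice ran on a motorized treadmill at 15 m/min for 120 min per day on 5 days per week over 8 weeks, and 5 sedentary mice served as controls. The labels name no engineered allele and no agent in either group, and the comparison asked which transcripts change in the heart with forced endurance training.

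Myosin heavy chain is the motor protein of the thick filament. Myh6 encodes the fast α chain, which predominates in the adult mouse ventricle, and Myh7 encodes the slow β chain, which predominates before birth and is known to return under load or when thyroid hormone is low. Thyroid hormone receptors raise Myh6 and repress Myh7. Mhrt is a non-coding RNA transcribed from the interval between these genes on the opposite strand, known to bind the chromatin remodeler Brg1. Myh7b encodes an older slow myosin and carries the miRNA Mir499 in an intron, as Myh6 and Myh7 carry Mir208a and Mir208b.

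On build GRCm39, Myh6 (ENSMUSG00000040752) spans chr14:55179374-55204384 and Myh7 (ENSMUSG00000053093) spans chr14:55208141-55232083, both on the minus strand. Mhrt (ENSMUSG00000097652) lies on the plus strand at chr14:55205795-55211921. It begins 1411 bases from the start of Myh6 and runs into the 3′ part of Myh7. Myh7b (ENSMUSG00000074652) is on another chromosome, at chr2:155453096-155476227 on the plus strand. Mhrt and Myh7 shared 644 exonic bases, 17.5% of the exonic bases of Mhrt and 7.47% of those of Myh7, whereas Mhrt and Myh6 shared none. A read over such an exon can therefore be given to Myh7 or to Mhrt only by its strand.

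**Figure D1:**
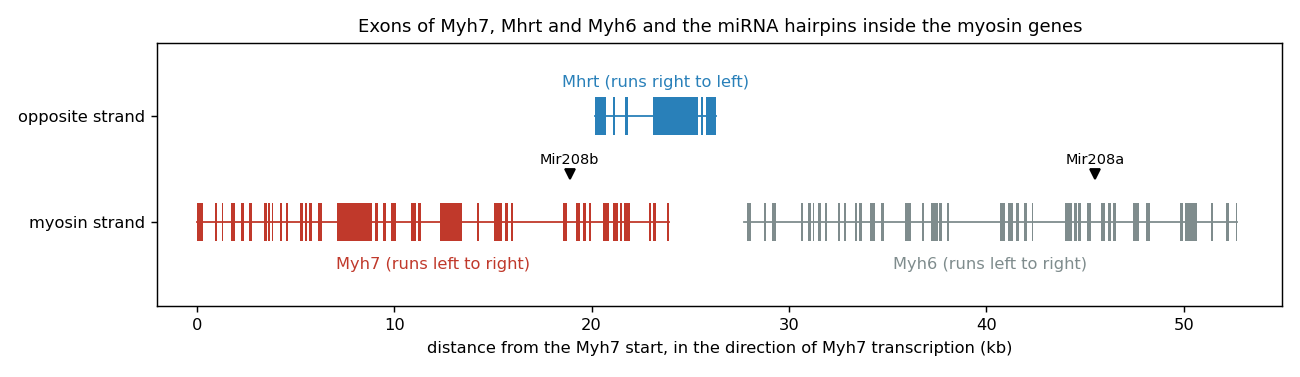
Map of the Myh7, Mhrt and Myh6 exons by distance in kb from the Myh7 start, with myosin genes on the lower line, Mhrt on the upper line and miRNA hairpins as triangles. The Mhrt exons lie across the end of Myh7 and the interval before Myh6, and the Mir208b hairpin lies in Myh7, 1236 bases beyond the end of Mhrt.

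The sequence of a shared exon shows what the strand decides. At chr14:55210222-55210369 an exon of Mhrt covers 148 bases of the protein-coding sequence of Myh7, and the letters are given from the GRCm39 genome as each transcript carries them:
Mhrt, plus strand: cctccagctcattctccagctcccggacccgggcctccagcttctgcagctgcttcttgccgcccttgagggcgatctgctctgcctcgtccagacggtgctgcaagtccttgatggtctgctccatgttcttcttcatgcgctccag
Myh7, minus strand: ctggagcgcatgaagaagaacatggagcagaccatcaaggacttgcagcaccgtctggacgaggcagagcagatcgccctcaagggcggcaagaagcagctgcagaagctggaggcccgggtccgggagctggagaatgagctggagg

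The miRNAs of the host genes are printed because their hairpins are intronic windows in which the strand of the reads could be seen. RefSeq gives the mature sequences, with the seed (bases 2 to 8) in capitals:
miR-208a-3p: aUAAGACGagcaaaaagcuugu
miR-208b-3p: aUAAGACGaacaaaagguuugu
miR-499-5p: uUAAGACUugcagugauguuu
miR-208a-3p and miR-208b-3p shared the seed UAAGACG and differed at 3 of 22 positions, counted from the 5′ end of miR-208a-3p (G10A, A16G and C18U). miR-499-5p carried the seed UAAGACU.

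The promoters of the chromosome 14 genes are shown because regulators of the myosin switch are counted among the pathway genes. RefSeq windows of 300 bases, 250 before the annotated start and the rest after it, were taken from the GRCm38.p6 table and placed on GRCm39 by exact match. Searched on both strands were GGAATG, the core of the MCAT element that TEAD factors bind, AGGTCA, the half-site of the thyroid hormone receptor, and TATAAA, with the matches in capitals and no match overlapping another:
Myh6, chr14:55204015-55204314, minus strand: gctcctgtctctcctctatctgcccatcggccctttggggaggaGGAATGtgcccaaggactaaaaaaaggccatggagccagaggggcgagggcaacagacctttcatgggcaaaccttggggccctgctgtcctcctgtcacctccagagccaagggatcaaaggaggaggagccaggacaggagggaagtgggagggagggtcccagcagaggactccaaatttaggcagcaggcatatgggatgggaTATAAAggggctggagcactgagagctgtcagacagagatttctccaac
Myh7, chr14:55232034-55232333, minus strand: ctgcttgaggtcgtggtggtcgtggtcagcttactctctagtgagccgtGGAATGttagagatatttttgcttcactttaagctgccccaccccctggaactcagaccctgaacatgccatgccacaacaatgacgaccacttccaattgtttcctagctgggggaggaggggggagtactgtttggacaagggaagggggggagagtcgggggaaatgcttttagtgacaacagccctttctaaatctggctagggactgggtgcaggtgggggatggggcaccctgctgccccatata
Mhrt, chr14:55205994-55206293, plus strand: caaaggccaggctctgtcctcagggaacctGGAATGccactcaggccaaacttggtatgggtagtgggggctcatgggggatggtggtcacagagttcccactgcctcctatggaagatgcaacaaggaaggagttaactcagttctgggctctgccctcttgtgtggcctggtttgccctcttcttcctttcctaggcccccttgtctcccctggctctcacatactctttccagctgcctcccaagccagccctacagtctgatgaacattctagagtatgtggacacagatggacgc
GGAATG stood in all 3 of these windows, on the strand of the gene. On either strand it stood in 14.7% of the 32851 promoter windows of the table. GGAATG began at base 45 of the Myh6 window, base 50 of the Myh7 window and base 31 of the Mhrt window. Myh6 also held TATAAA, at base 252 and so after the annotated start, a motif that 13.6% of all windows held on either strand. The Myh7b window, not printed, held the half-site AGGTCA on the opposite strand, as TGACCT, and 16.3% of all windows held it on either strand. Myh7 has a second RefSeq start, whose window held none of these letters. The RefSeq starts of Myh6, Mhrt and Myh7b differ from the gene ends above, so these windows cover only part of what lies before each transcript.

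The libraries held between 29461697 and 39431030 reads on the sense strand of genes, with a median of 34231778 in the training group and 37754308 in the sedentary group. Between pairs of hearts of the same group the chi-square of the counts was 6.16 to 27.4 per degree of freedom, above sampling noise, so errors are given between hearts. Among 2813 genes with no gene annotated on the other strand and at least 100 counts in every heart, the median share of reads on the wrong strand was 0.615% in training heart 1, 0.229% in training heart 3 and 0.353% in sedentary heart 3. It lay between 0.023% and 0.078% in the other hearts. Values without these 3 libraries, a choice made after seeing the data, stand beside the antisense results and with the counts of calls. Cardiomyocyte markers summed to 33433 to 36681 CPM (counts scaled to a common library size) after training and 36288 to 41627 CPM in the sedentary hearts. Atrial and ventricular markers were present in every heart, as in the labelled tissue.

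Across all genes, edgeR's quasi-likelihood test called 1084 of 15454 genes (7.01%) at a false discovery rate (FDR) below 0.1, 2.75% of all genes higher in the training hearts and 4.26% lower. The groups did not overlap for 5.06% of the genes tested, 2.12% being higher and 2.94% lower after training. All 4 members passed the filter on low counts. Of these, Myh7 alone was called by edgeR and had groups that did not overlap, and DESeq2 at the same FDR called Myh7 higher and Myh6 lower. The members were chosen from this contrast, and their count is not evidence about them. Levels below are sense-strand CPM, scaled by the library size after TMM correction for composition, and group values are mean ± SD with n = 5.

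Myh7, the β chain, was higher in every training heart than in any sedentary heart. It stood at 195, 383, 228, 228 and 227 CPM in training hearts 1 to 5. In sedentary hearts 1 to 5 it stood at 74.7, 110, 95.8, 136 and 131 CPM. The group means were 252 ± 74.7 CPM and 110 ± 25.4 CPM, a log2 fold change of 1.201 (SE 0.184). The lowest training heart and the highest sedentary heart, at 195 and 136 CPM, were the nearest values of the groups. Training heart 2 stood apart from the other training hearts, and without it the log2 fold change was 1.00. The values rest on 3006 to 13386 Myh7 sense reads per heart.

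Myh6, the α chain, was at 27345, 26829, 26922, 26924 and 28158 CPM in training hearts 1 to 5. It was at 27795, 28871, 29640, 31128 and 29332 CPM in the sedentary hearts in the same order. The groups overlapped in 1 pair of neighbours, training heart 5 lying above sedentary heart 1. The means were 27236 ± 553 CPM and 29353 ± 1214 CPM, a log2 fold change of −0.11 (SE 0.052). This value depended on the scale and was −0.054 with library totals alone. In TPM (transcript level scaled for gene length and library size), which has no TMM correction, the groups lay together. They were at 7641 ± 276 TPM after training and 7655 ± 281 TPM in the sedentary hearts. The mean effective length of Myh6 was nearly level, at 4280 bases after training and 4318 bases in the sedentary hearts. Myh6 alone took 2.72% to 2.97% of all gene reads of a library.

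Myh7b, the older slow myosin, was at 129, 115, 102, 112 and 130 CPM in training hearts 1 to 5 and at 97.3, 131, 105, 112 and 138 CPM in sedentary hearts 1 to 5. The groups lay across each other over nearly the whole range. Their means were 118 ± 12.0 CPM and 117 ± 17.2 CPM, a log2 fold change of 0.01 (SE 0.094).

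Mhrt was at 165, 162, 143, 146 and 169 CPM in training hearts 1 to 5. It was at 183, 178, 182, 172 and 148 CPM in sedentary hearts 1 to 5. The groups overlapped through sedentary heart 5, and the other sedentary hearts lay above all training hearts. The means were 157 ± 11.9 CPM and 173 ± 14.3 CPM, a log2 fold change of −0.14 (SE 0.064).

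**Figure D2:**
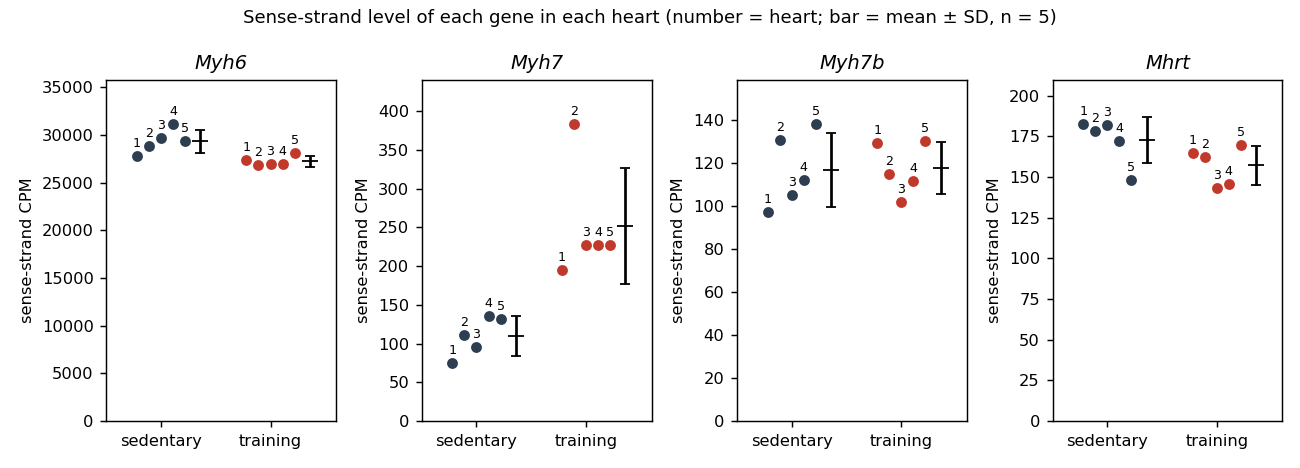
Sense-strand CPM of Myh6, Myh7, Myh7b and Mhrt in each heart, numbered as in the labels, with the mean ± SD of 5 hearts beside the points and axes from 0. Only in the Myh7 panel do the training points, 195 to 383 CPM, lie wholly above the sedentary points, 74.7 to 136 CPM.

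Levels of different genes were compared per length, in TPM. In the training hearts Myh6 lay at 7375 to 8044 TPM, Mhrt at 69.1 to 81.7 TPM, Myh7 at 50.1 to 103 TPM and Myh7b at 34.8 to 42.2 TPM. In the sedentary hearts Myh6 lay at 7349 to 7983 TPM, Mhrt at 65.5 to 91.7 TPM, Myh7b at 31.8 to 39.7 TPM and Myh7 at 20.3 to 39.3 TPM. Myh6 stood far above the other 3 in every heart. The ranges of Mhrt and Myh7 overlapped in the training hearts, and those of Myh7b and Myh7 overlapped in the sedentary hearts. Heart by heart, Mhrt lay above Myh7 in every training heart but heart 2. Myh7b lay above Myh7 in every sedentary heart but heart 4, where they were at 32.75 and 39.31 TPM. The place of Myh7 in the order was below Myh7b by the sedentary means, 29.9 ± 7.16 TPM against 35.5 ± 3.57 TPM, and above it by the training means, 68.1 ± 20.6 TPM against 37.5 ± 2.84 TPM.

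The β chain remained a small part of the myosin mRNA. Myh7 made up 0.674%, 1.35%, 0.798%, 0.780% and 0.814% of the Myh6 and Myh7 TPM in training hearts 1 to 5. It made up 0.263%, 0.393%, 0.338%, 0.498% and 0.458% in sedentary hearts 1 to 5. The means were 0.883% ± 0.265 and 0.390% ± 0.094, and the groups did not overlap. Myh6 exceeded Myh7 by 73.2 to 147 times after training and by 200 to 380 times in the sedentary hearts. The summed TPM of the 3 myosin genes was nearly level, at 7747 ± 281 after training and 7720 ± 278 in the sedentary hearts. This holds for the TPM scale, as Myh6, nearly all of the sum, had means of 27236 and 29353 on the CPM scale.

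The ratio of Mhrt to Myh7 differed more between the groups than Mhrt itself, and Myh7 is its denominator. The Myh7 share above and the antisense share of Myh7 below also contain Myh7 reads, so these are not separate differences. Mhrt TPM was 1.63, 0.719, 1.11, 1.18 and 1.23 times Myh7 TPM in training hearts 1 to 5. In sedentary hearts 1 to 5 it was 4.52, 2.74, 3.34, 1.94 and 1.93 times Myh7 TPM. The groups did not overlap, and training heart 2 was the only heart with more Myh7 than Mhrt.

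**Figure D3:**
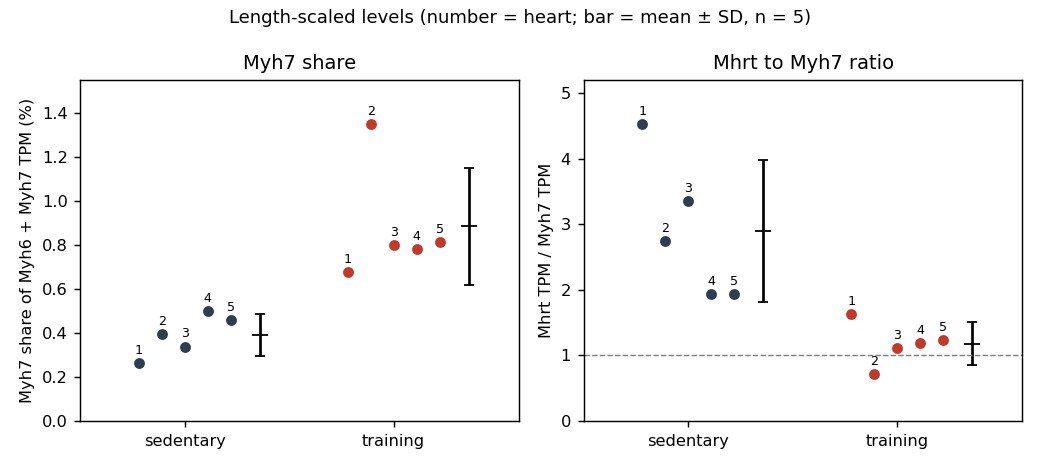
Left, the Myh7 share of Myh6 plus Myh7 TPM in percent; right, Mhrt TPM divided by Myh7 TPM, with a dashed line at equal levels; points are hearts and bars the mean ± SD of 5. Training hearts lie at 0.674% to 1.35% on the left, above all sedentary hearts, and at 0.719 to 1.63 on the right, below all of them.

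Part of the Myh6 and Myh7 sequence cannot be told apart in a single read. The coding sequences of the canonical transcripts were 91.4% identical by global alignment, against 71.1% for Myh6 and Myh7b and 71.5% for Myh7 and Myh7b. Of all 100-base windows of the Myh6 transcript, 11.2% occurred unchanged in Myh7, with a longest shared stretch of 245 bases. Myh7b shared no such window with either gene. Reads from such windows map to more than 1 place and are not in the unique counts. RSEM, which distributes them, gave 1.11 times the unique count for Myh6 and 1.08 to 1.10 times for Myh7. With its expected counts the log2 fold change of Myh7 was 1.21. For Myh7b the mean expected count was below the mean unique count, 3464 against 3982 after training and 3702 against 4267 in the sedentary hearts. The ratios therefore do not measure the shared reads alone.

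The balance of sense and antisense reads over Myh7 differed between the groups. Sense counts of Myh7 were 6891, 13386, 8502, 7311 and 6835 in training hearts 1 to 5 and 3006, 3783, 3599, 4783 and 4790 in sedentary hearts 1 to 5. Antisense counts over the same exons were 9198, 8821, 8141, 7988 and 8559 after training and 11885, 9732, 10919, 10240 and 9368 in the sedentary hearts. More reads thus ran against Myh7 than with it in every sedentary heart and in every training heart but hearts 2 and 3. The antisense share was 57.2%, 39.7%, 48.9%, 52.2% and 55.6% in training hearts 1 to 5. It was 79.8%, 72.0%, 75.2%, 68.2% and 66.2% in sedentary hearts 1 to 5, and the groups did not overlap.

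Scaled to library size, the antisense strand itself differed little. It was at 253 ± 23.8 CPM after training and 284 ± 15.6 CPM in the sedentary hearts, with overlap, a log2 ratio of −0.17. A count that ignores strand adds antisense reads to Myh7 and drops reads on exons shared with Mhrt, which it cannot assign. Counted so, Myh7 had 9841, 13771, 10244, 9404 and 9444 reads in training hearts 1 to 5 and 8899, 8210, 8954, 9060 and 8685 in sedentary hearts 1 to 5, and the log2 fold change was 0.38 in place of 1.201. Wrong-strand reads at the median share of each library could make up at most 57.0 of the Myh7 sense reads and 42.7 of its antisense reads in a heart.

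**Figure D4:**
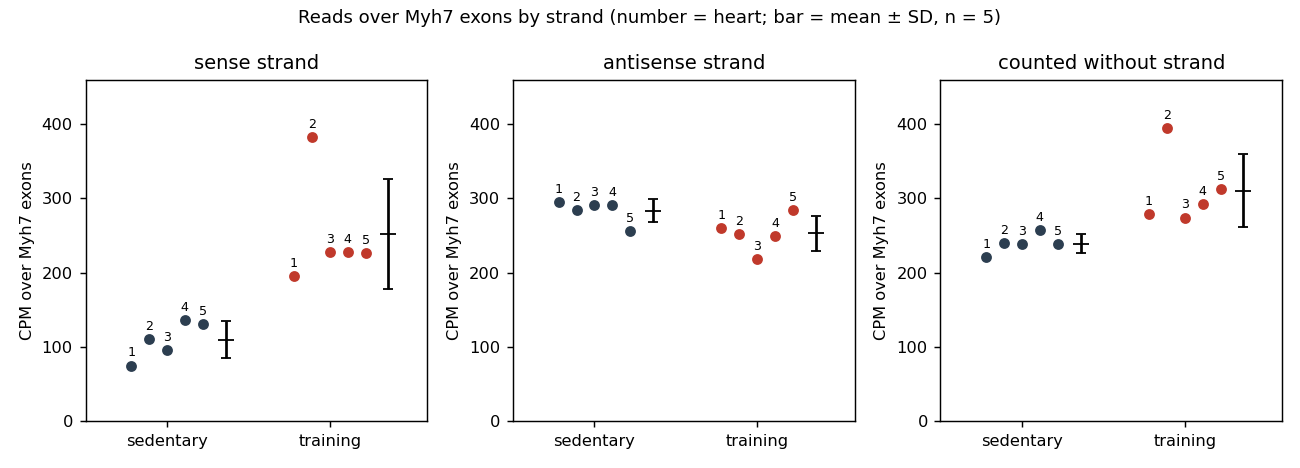
CPM over Myh7 exons on the sense strand, on the antisense strand and counted without strand, on a common axis from 0; points are hearts and bars the mean ± SD of 5. The groups separate on the sense strand, at means of 252 and 110 CPM, and overlap on the antisense strand, at means of 253 and 284 CPM.

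Antisense reads over Myh7 reached beyond the exons of the 18 Mhrt transcripts that RSEM quantified. GENCODE M39 lists 52 Mhrt transcripts, and whether the others cover these reads was not tested. If every Mhrt read also lay on a Myh7 exon, 3366, 3155, 2795, 3305 and 3449 antisense reads in training hearts 1 to 5 would still lie outside the exons used. In sedentary hearts 1 to 5 that minimum was 4538, 3620, 4070, 4194 and 3959 reads. It was at least 34.3% of the Myh7 antisense reads in every heart. Reads in the direction of Myh7 over the Mhrt exons numbered 1434 to 2408 after training and 899 to 1224 in the sedentary hearts, without overlap. Those on the shared exons also count for Myh7.

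The Mir208b hairpin gave a window inside Myh7 that no exon of Mhrt or Myh7 in the files covers. It lies at chr14:55213157-55213233, and its RefSeq sequence on the Myh7 strand is as follows:
Mir208b hairpin: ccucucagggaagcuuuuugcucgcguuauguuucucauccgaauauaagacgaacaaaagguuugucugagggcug
Antisense counts there were 454 to 587 after training and 421 to 758 in the sedentary hearts, against 0 to 4 sense counts. This amounted to 15.3 ± 1.54 CPM and 16.0 ± 2.79 CPM, with overlap. The count takes in whole reads of 100 bases that touch the hairpin, and does not measure the mature miRNA, which a poly-A library does not hold. At the Mir208a hairpin in Myh6 (chr14:55186517-55186599) the strands were the other way round, with 22 to 41 sense counts in the training hearts, 32 to 56 in the sedentary hearts, and at most 1 antisense count. Mir499 in Myh7b (chr2:155464800-155464878) had 0 to 4 counts.

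The antisense shares of Myh6 and Myh7b were far below that of Myh7. The antisense share of Myh6 was 0.095% to 1.29%, and between 65.8% and 88.8% of the 2813 genes without an opposite gene had a lower share in the same heart. Myh6 antisense reads were most numerous in training hearts 1 and 3 and sedentary heart 3, at 12579, 6863 and 10043 counts. These 3 libraries also had the most wrong-strand reads. At the median share of each library, wrong-strand reads would make up 5981, 2313 and 3949 of those counts. Less these reads, Myh6 antisense was at 187, 122 and 162 CPM there and at 21.0 to 53.2 CPM in the other hearts. The source of the rest was not tested. Myh7b lay at 0.297% to 1.57%, and between 86.8% and 95.9% of the same 2813 genes had a lower share. Unlike those genes, Myh6 and Myh7b overlap annotated genes on the other strand, Gm49130 for Myh6 and Gss and Trpc4ap for Myh7b. The part of these genes in the antisense reads was not tested. Without the 3 libraries the log2 ratio of training to sedentary antisense CPM was −0.107 for Myh7 and 0.314 for Myh6, in place of −0.167 and 0.689 with all hearts. The share of Myh7 was above that of all 2813 genes in every heart. Those genes were chosen for having no gene opposite, whereas Mhrt lies opposite Myh7, so this rank does not compare like with like.

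**Figure D5:**
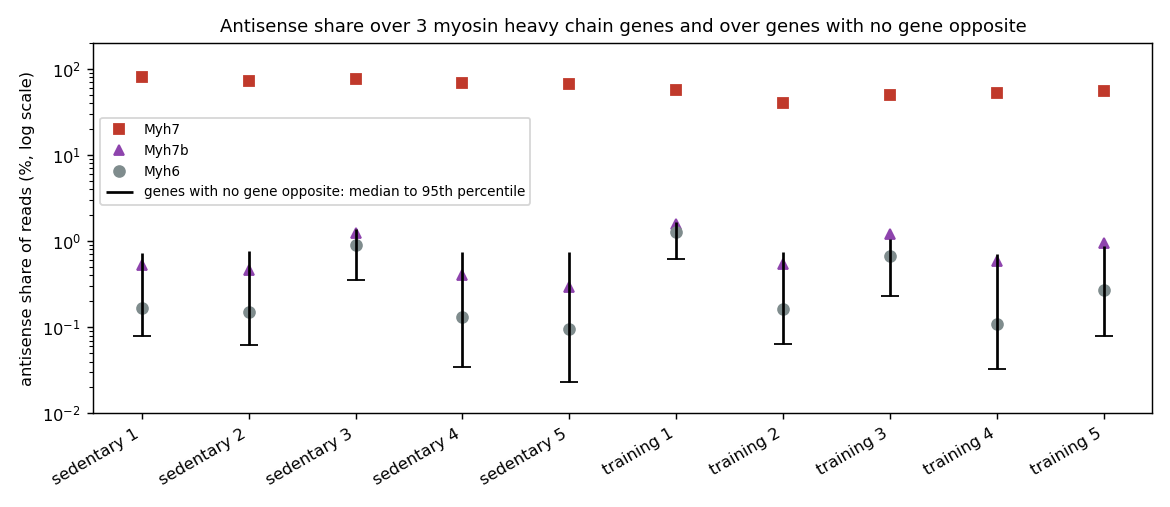
Antisense share of reads in percent on a log axis for Myh7, Myh7b and Myh6 in each heart; black lines run from the median to the 95th percentile of 2813 genes with no gene on the other strand. Myh7 lies at 39.7% to 79.8%. Myh6, at 0.095% to 1.29%, is highest in training hearts 1 and 3 and sedentary heart 3, where the black lines also start highest. Myh7, Myh7b and Myh6 each overlap an annotated gene on the other strand.

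The partners of the myosins were examined in 7 lists of 101 genes, of which 91 were tested. Of these, 2 rose and 9 fell, 12.1% against 7.01% of all genes, with a median log2 fold change of −0.01 beside 0.00 over all genes. This split depended on the settings, with 8 higher and 4 lower under library totals alone and 8 higher and 10 lower with the replicate block. Without training hearts 1 and 3 and sedentary heart 3, which leaves 3 training and 4 sedentary hearts, 0 of 92 tested pathway genes passed edgeR's test, with 17 at an unadjusted p below 0.05. The count was 14 with DESeq2, 17 without training heart 2, 6 without training heart 4, 19 without sedentary heart 1 and 4 without sedentary heart 3.

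Genes of the thick filament and M-band, the lattice that holds the myosin rods, gave 1 rise and 3 falls among 17 tested, with a median of −0.01. Myom1, which encodes the M-band cross-linker myomesin, fell from 1939 ± 69.2 CPM to 1699 ± 77.7 CPM (log2 −0.19, edgeR FDR 0.0402). Myom2, which encodes the M-protein of fast muscle, rose from 1258 ± 145 CPM to 1585 ± 165 CPM (log2 0.33, edgeR FDR 0.0475). Smyd1, a methyltransferase that helps myosin assemble, and Trim54, a muscle RING finger protein, both fell by 0.16 on the log2 scale (edgeR FDR 0.0653 and 0.0405). Mybpc3, the cardiac myosin-binding protein C, was at 3683 ± 177 CPM and 3674 ± 212 CPM, and was not called.

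Genes of the thin filament, the actin track of the myosin heads, gave 1 rise and 3 falls among 10 tested, with a median of −0.09. Actc1, the cardiac actin, fell from 10470 ± 858 CPM to 8022 ± 849 CPM (log2 −0.38, edgeR FDR 0.022). Acta1, the skeletal actin of the fetal heart, fell from 556 ± 86.3 CPM to 310 ± 167 CPM (log2 −0.84, edgeR FDR 0.0935), while training heart 2, at 586 CPM, stayed in the sedentary range. Tnnc1, the cardiac and slow troponin C, fell by 0.26 on the log2 scale (edgeR FDR 0.0406). Tnni1, the slow troponin I of the fetal heart, rose from 0.689 ± 0.188 CPM to 1.26 ± 0.188 CPM (log2 0.87, edgeR FDR 0.0307), with all 5 training hearts above all sedentary hearts.

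The 11 tested light chains, which bind the neck of the myosin head, gave no call in edgeR or DESeq2, with 2 at an unadjusted p below 0.05 in each and a median of −0.08. Myl2, the ventricular regulatory light chain, was at 4704 ± 488 CPM after training and 5062 ± 570 CPM in sedentary hearts. Myl3, the ventricular essential light chain, was at 3264 ± 287 CPM and 3647 ± 298 CPM. Of the 11 other myosin heavy chains, 4 were tested (Myh9, Myh10, Myh11 and Myh14) with no call in edgeR or DESeq2 and 1 at an unadjusted p below 0.05 in each. The skeletal and developmental chains Myh1, Myh2, Myh3, Myh4 and Myh8 stayed below 1 CPM in every heart.

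Among 27 tested regulators of Myh6 and Myh7, edgeR called 1 lower and 0 higher, with a median of 0.01, and with library totals alone 1 higher and 0 lower. Tead3, a factor of the MCAT element, fell by 0.17 on the log2 scale (edgeR FDR 0.0778). Thra, the thyroid hormone receptor α, had a log2 fold change of −0.02. Med13, the Mediator subunit that miR-208a targets, had 0.02. Sox6 and Purb, repressors linked to the miR-208 and miR-499 network, had 0.06 and −0.01. Smarca4, which encodes Brg1, had −0.05 and Tead1 −0.09. None of these 6 was called (edgeR FDR between 0.375 and 0.935).

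Among 15 tested genes of the thyroid hormone axis and its targets, edgeR called 2 lower and 0 higher, with a median of 0.00 and 7 at an unadjusted p below 0.05. DESeq2 called 4 lower and 1 higher of 16, and edgeR with library totals alone called 1 lower and 2 higher. Hcn2, a pacemaker channel, fell from 35.1 ± 2.98 CPM to 28.6 ± 1.62 CPM (log2 −0.29, edgeR FDR 0.0232), and Me1, the cytosolic malic enzyme, fell by 0.19 on the log2 scale (edgeR FDR 0.0386). Atp2a2, the calcium pump of the sarcoplasmic reticulum, was not called and had a log2 fold change of −0.02.

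The 9 genes of the fetal and stress programme, among which Myh7 is usually counted, gave 1 rise and 1 fall by edgeR, Tnni1 and Acta1 as above, with a median of 0.12. Acta1 was not called by DESeq2 or with library totals alone, where the counts were 1 rise and 0 falls and 2 rises and 0 falls. Nppa, the atrial natriuretic peptide gene, was at 3516 ± 581 CPM after training and 2554 ± 1004 CPM in sedentary hearts (log2 0.46, edgeR FDR 0.248). Nppb, the gene of the B-type peptide, was at 233 ± 50.5 CPM and 236 ± 27.9 CPM.

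Atrial markers tended to be higher after training. All 11 had a log2 fold change above 0 and 4 were called higher (Sln, Kcnj3, Dkk3 and Stard10). Their summed levels overlapped, at 5500 to 8170 CPM after training and 3060 to 7287 CPM in the sedentary hearts. The atrial calls depended on the hearts, with 9 of 11 without sedentary heart 1. Without training hearts 1 and 3 and sedentary heart 3, 0 of 11 were called. In bulk tissue a different share of a cell type and a different RNA level per cell cannot be told apart. With an atrial score as a covariate the log2 fold change was 1.51 for Myh7, 0.27 for Myh7b, −0.10 for Myh6 and −0.15 for Mhrt, and 2 pathway genes (Myl1 and Myl9, both lower) were called. The 8 cardiomyocyte markers all lay below 0, with Actc1 and Tnnc1 called lower, and their part in the values of the myosins was not tested. The 4 ventricular markers gave no call in edgeR or DESeq2, with 1 at an unadjusted p below 0.05 in each. Of 14 skeletal muscle markers 9 were tested, with no call in either tool and 0 in edgeR and 1 in DESeq2 at an unadjusted p below 0.05; they summed to 24.8 to 29.8 CPM after training and 24.7 to 32.0 CPM in the sedentary hearts. Of the 6 fibroblast markers Pdgfra was called higher, and of the 5 endothelial markers Tie1 was called lower. Without the same 3 libraries, 0 of the 8 cardiomyocyte, 6 fibroblast and 5 endothelial markers were called.

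Genes beside the members did not pass the test. Within 100 kb of Myh6, Mhrt and Myh7, 10 genes were tested (Homez, Ppp1r3e, Bcl2l2, Pabpn1, Slc22a17, Efs, Gm49130, Mir208a, Ngdn and Zfhx2), with log2 fold changes of −0.39 to 0.75. Within 100 kb of Myh7b, 5 were tested (Ggt7, Acss2, Gss, Trpc4ap and Edem2), with −0.08 to 0.35. Of the 15 neighbours 0 were called by edgeR and 3 were at an unadjusted p below 0.05. Gm49130, which overlaps the end of Myh6 on the opposite strand, had the value of 0.75 and the largest standard error (0.933). Mir208a, inside Myh6 on the same strand, had −0.39. Reads of Myh6 can enter the counts of both, and their part was not tested. The other tested genes near Myh6, Mhrt and Myh7 lay at −0.13 to 0.32.

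The genes whose levels followed each member within the groups were found from log2 CPM after subtraction of each group's mean, over 10 hearts and 13116 genes, as a description. Over all these genes the 99th percentile of r was 0.80 for Myh7, 0.79 for Myh7b, 0.78 for Mhrt and 0.77 for Myh6. The genes named below are those with the highest r, and high values are therefore built into the choice. Myh7 was followed most closely by Myocd, a cardiac coactivator of serum response factor (r = 0.97), then by Actc1 (r = 0.95), Hspb6 (r = 0.94), Ocel1 (r = 0.93) and Arhgef7 (r = 0.93). Training heart 2, highest in Myh7, was also the highest training heart in Actc1, and without it r was 0.94 for Myocd and 0.91 for Actc1. These r values pool both groups. Among the sedentary hearts Actc1 rose with Myh7, from 9228 CPM in heart 1 to 11431 CPM in heart 4. In the training hearts other than heart 2, Actc1 lay at 7402 to 7777 CPM and did not follow Myh7. Training heart 1, lowest of them in Myh7, was at 7777 CPM. Actc1 was lower in the training group, where Myh7 was higher.

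Myh6 was followed by Ppm1l, Agpat3, Atp2a2, Csnk1a1 and Traf3ip2 (r from 0.91 to 0.96). Myh7b was followed by Akr1b1, Pde8b, Ivns1abp, Armh3 and Ahrr (r from 0.93 to 0.95), and Mhrt by 4632427E13Rik, Synj2bp, Esf1, 4933434E20Rik and Mrnip (r from 0.92 to 0.95). Pairs of members were not picked for a high r, so their values cannot be set against those of the picked genes. Between members r was −0.29 for Myh7 and Mhrt, 0.36 for Myh6 and Myh7 and 0.33 for Myh6 and Myh7b. It was 0.31 for Myh7 and Myh7b, 0.05 for Myh6 and Mhrt and −0.11 for Myh7b and Mhrt, all over the same 10 libraries.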

How the data were processed

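Single reads of 100 bases from directional poly-A libraries of 10 hearts were sequenced in 1 pool. Per gene, the authors deposited unnormalized counts of reads with 1 mapping place (STAR 2.7.10a, GRCm39), by strand and without strand. They also deposited expected counts and TPM from RSEM 1.3.3, whose strand setting is not stated. Reads that map to several places are not in the counts. Multimapping reads were 17.9% to 19.2% and reads on no gene 4.15% to 4.89% of the reads in these tables, and both stayed out of library sizes. The reverse-strand column, with 94.9% to 95.6% of counts on either strand, was used as sense and the forward column as antisense. Groups came from the treatment label. Symbols, exons and positions came from GENCODE M39, which matched 56017 of 56748 identifiers. Member exons and spans used only the transcripts that RSEM quantified, 18 of the 52 M39 transcripts for Mhrt and 8 of 38 for Myh7.

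The comparison of the groups used edgeR 4.0.16 in R 4.3.3 (low counts removed by filterByExpr, TMM, quasi-likelihood test, Benjamini-Hochberg adjustment over all genes, FDR below 0.1). Expected counts were rounded. A prior count of 2 was used for logarithms. Each heart is a separate mouse, and p-values set the difference between groups against the variation between hearts, estimated in part across genes.

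The members, the lists and the tests were chosen with earlier results of these data known, and members get no p-value. Named were the members, pathway genes past the FDR (at most 12), 13 genes fixed by name, tested genes within 100 kb, and the 5 genes of at least 1 CPM most like each member. Of the hearts with the same number, residuals correlated at −0.10, 0.16, 0.08, 0.02 and 0.16, so the numbers were not taken as pairs. Alternatives were DESeq2 1.42.0, other scalings, filters and counts, a replicate block, an atrial score, each heart left out, and 3 libraries left out.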

Additional observations from a re-analysis of the deposited data

Results flagged for a closer look

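Of 74 groups of 5 hearts examined, 9 held a heart far from the other 4 of its group; chance alone flags about 1 group in 20. In the training group, heart 2 was at 383 CPM for Myh7 sense reads (others 195 to 228), at 68.9 CPM for Myh7-strand reads over Mhrt exons (others 44.9 to 47.8), at 1.35% for the Myh7 share of Myh6 plus Myh7 (others 0.674% to 0.814%) and at 9516 CPM for Actc1 (others 7402 to 7777). The first 3 of these share reads. Training heart 5 was at 17987 CPM for Atp2a2 (others 16834 to 17097).

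In the sedentary group, heart 3 was at 267 CPM for Myh6 antisense reads (others 27.9 to 46.6) and at 1.304 CPM for Myh7b antisense reads (others 0.411 to 0.613), and its median wrong-strand share, 0.353%, was the highest of its group. Sedentary heart 5 was at 257 CPM for Myh7 antisense reads (others 284 to 295). Sedentary heart 2 was at 4043 CPM for Mybpc3 (others 3531 to 3640).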

How the results depend on the processing

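Myh7 kept a log2 fold change of 1.00 to 1.29 with each heart left out and 1.31 without training hearts 1 and 3 and sedentary heart 3; counts of both strands moved it to 0.38. Myh6 lay at −0.13 to −0.09 with each heart left out and at −0.054 with library totals alone. Myh7b lay at −0.05 to 0.08 with each heart left out, and at 0.27 with the atrial score. With each heart left out Mhrt lay at −0.19 to −0.10, Myh7 antisense at −0.21 to −0.12, Myh6 antisense at −0.04 to 1.79 and the difference in Myh7 share at 0.377 to 0.545 percentage points. Mhrt lay at −0.085 with library totals alone and −0.093 without the 3 libraries, and Myh7 antisense at −0.107 without them. The 1084 calls over all genes became 69 with the atrial score, 505 at an FDR below 0.05, 76 without the 3 libraries and 512 to 1490 with each heart left out (512 without training heart 4 and without sedentary heart 3, 540 without training heart 3, 611 without sedentary heart 2, 671 without sedentary heart 4). The 11 pathway calls became 18 with the replicate block, 2 with the atrial score, 0 without the 3 libraries and 4 to 19 with each heart left out. The cause was not tested. With library totals alone the split over all genes was 1029 higher and 339 lower in place of 425 and 659, and the median of all genes shifted to 0.05. With the replicate block 1137 genes were called and Myh7 had 1.19; the numbers are shared labels only. Depth limits the Mir499 hairpin, at 0 to 4 counts, and Tnni1, near 1 CPM.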
